A study of Mus musculus with 4 samples.

Results

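The genes described here make nitric oxide, supply its substrate arginine, or break that arginine down. They were chosen by name as 7 genes (Nos2, Gch1, Slc7a2, Ass1, Asl, Arg1 and Arg2) of the 24148 genes in the count table, without regard to a threshold on the values. Earlier results of these data were known at that choice, so setting the 7 beside all genes is a description. RNA was sequenced from primary cultures of mouse microglia, which are brain-resident macrophages, detached from mixed glia by shaking and then replated. Untreated control cells gave 2 libraries, and cells given lipopolysaccharide (LPS), the endotoxin of Gram-negative bacteria, at 10 ng/ml for 4 h gave the other 2. The sources used here give no strain, sex or age of the mice. Whether the libraries of a group stem from separate animals or cultures is not said in the labels, and the spread behind every p-value is that between these libraries and may be technical.

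Nitric oxide is made from arginine and oxygen by nitric oxide synthases, which release citrulline as the other product. In activated macrophages and microglia of rodents the inducible synthase Nos2 makes large amounts, and it needs tetrahydrobiopterin (BH4), whose synthesis starts with the GTP cyclohydrolase Gch1. Arginine enters the cell through cationic amino acid carriers such as Slc7a2, can be rebuilt from citrulline by argininosuccinate synthase (Ass1) and argininosuccinate lyase (Asl), and is split to ornithine and urea by the arginases Arg1, in the cytosol, and Arg2, in mitochondria. Nos2 and the arginases therefore compete for a substrate.

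The libraries held 3617176 to 5095630 counts. An accession without a gene name took 20.0% to 24.8% of each library, and Lars2 took 5.02% to 12.97%. Of 15 microglia and macrophage markers, 12 had enough counts to be tested. The summed level of the 15 was 3628 to 4101 CPM in the control libraries and 2565 to 2733 CPM in the LPS libraries, where CPM is the count scaled to a common library size with TMM factors. Of these 12, 10 had a negative log2 fold change, 7 were lower at an unadjusted p under 0.05, and 1, Olfml3 (-1.29; edgeR adjusted p = 0.024), was called lower by edgeR. Of all 9548 genes tested, 2033 had such an unadjusted p in either direction and 1.79% were called lower, with a median log2 fold change of -0.05. The part of the microglia markers in the results below was not tested. C1qa and Fcrls were abundant, with at least 245.6 CPM in every library. Itgam, the integrin chain CD11b, had 0 counts in all 4 and Trem2 had at most 2, but both genes have 2 accessions. Of genes with more than 1 accession, 30.2% had no count, against 6.95% of genes with 1. These low counts are therefore not read as absence. Summed oligodendrocyte markers differed between libraries of 1 group (397 and 66.3 CPM in control replicates 1 and 2, 408 and 57.8 CPM in LPS replicates 1 and 2), as did astrocyte markers (120 and 321 CPM in control, 136 and 449 CPM in LPS). The groups overlapped in both sums. The part of these other cells was not tested either. In such bulk libraries a change in the share of a cell type and a change in RNA per cell cannot be told apart.

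Slc7a2 was the 1 gene of the 7 with more than 1 RefSeq accession in the count table. The gene lies on chromosome 8 (40862341 to 40922070, GRCm38, plus strand). It is known to give a high-affinity and a low-affinity arginine carrier by use of alternative exons. The GENCODE transcripts that match the accessions have 12 exons each and use different stretches of the genome as exon 7. Both versions follow to show how the transcripts behind the counts differ. Both are coding, are written 5′ to 3′ from the GENCODE M21 transcripts, and carry capitals where an alignment found them to differ.
NM_001044740 exon 7, chr8:40908056-40908195: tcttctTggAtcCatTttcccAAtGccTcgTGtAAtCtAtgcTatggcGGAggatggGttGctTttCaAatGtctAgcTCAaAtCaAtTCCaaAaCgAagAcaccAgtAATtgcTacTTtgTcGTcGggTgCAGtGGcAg
NM_007514 exon 7, chr8:40908398-40908534: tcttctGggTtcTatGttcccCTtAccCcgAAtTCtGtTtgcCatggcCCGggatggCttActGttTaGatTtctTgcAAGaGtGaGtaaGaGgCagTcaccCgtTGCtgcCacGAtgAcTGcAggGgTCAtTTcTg
The exons measure 140 and 137 bases, and 84 of 140 aligned positions (60.0%) were the same, with 53 mismatches and 3 gaps. The transcripts also differ at the 3′ end, where the last exon measures 1719 bases for NM_001044740 and 5971 bases for NM_007514. The sources used here do not say which accession encodes which carrier.

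For Gch1 (chromosome 14, 47153895 to 47189413, minus strand) the 250 bases before the start in the RefSeq promoter table (GRCm38.p6) are shown because its transcript rose, as described below. Of the 7 genes, 2 had a promoter in that table. Capitals mark a CCAAT box and the core TGACG of a cAMP response element.
Gch1 promoter, chr14:47189414-47189663, minus strand: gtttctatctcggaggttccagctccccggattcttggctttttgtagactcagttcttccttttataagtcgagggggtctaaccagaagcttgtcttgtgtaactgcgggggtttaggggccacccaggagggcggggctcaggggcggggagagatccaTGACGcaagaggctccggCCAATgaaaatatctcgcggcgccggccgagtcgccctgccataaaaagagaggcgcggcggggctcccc
Both strands were searched for 6 motifs. CCAAT lay 70 to 66 bases before the start and TGACG 88 to 84 bases before it. GGGCGG, the GC box of Sp1, had 2 matches. These letters occur in 33.8%, 17.8% and 32.7% of 32851 promoter windows of the same length. A form of the NF-kB pattern with free bases but with T fixed at positions 6 and 7 had 0 matches in this window. So did the interferon-stimulated response element, also a consensus with free bases, and the interferon gamma activation site TTCNNNGAA. These occur in 4.11%, 2.98% and 7.02% of all windows, in that order. NF-kB sites with other bases at those positions were not searched for. The values for NF-kB therefore hold for this form only, and its absence does not show that the window lacks an NF-kB site. A match or its absence is a description of these letters.

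Transcripts of Nos2, Gch1 and Slc7a2 rose with LPS, whereas no change was called in the arginases or in Asl. With edgeR's quasi-likelihood test on genes whose count averaged 10 or more, and Benjamini-Hochberg adjustment at 0.05, 3 of the 6 tested genes were higher in LPS (Nos2, Gch1 and Slc7a2), against 6.55% of 9548 genes tested (8.34% in either direction). None was called lower, against 1.79% of all genes, and none had an unadjusted p under 0.05 in that direction. DESeq2 and limma-trend, the latter on log2 counts not scaled for library size, also called 3 higher and 0 lower. The seventh gene, Ass1, had no count. The median log2 fold change of the 6 was 2.18, beside -0.05 over all genes tested. No gene lay near this median, which falls between the 3 called genes (lowest Slc7a2, 4.07) and the 3 not called (highest Arg2, 0.30). The groups did not overlap for any of the 6 tested genes, as for 50.5% of all genes. LPS was above control in 4 (24.7% of all genes) and below it in 2 (25.8%).

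**Figure D1:**
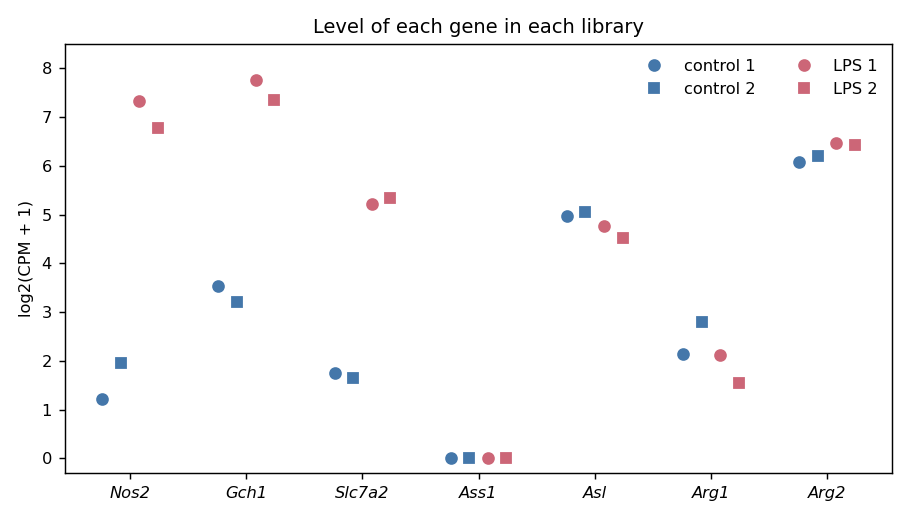
Level of each of the 7 genes in each library, as log2(CPM + 1) on the vertical axis, with circles for replicate 1 and squares for replicate 2. The LPS points of Nos2, Gch1 and Slc7a2 stand far above the control points, those of Asl, Arg1 and Arg2 lie close to them, and Ass1 is at 0 throughout.

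Nos2, the inducible nitric oxide synthase (accession NM_010927, chromosome 11, 78920787 to 78960226, plus strand), was counted 5 times in control replicate 1, 15 times in control replicate 2, 674 times in LPS replicate 1 and 455 times in LPS replicate 2. In CPM these were 1.31 and 2.88 in control and 161 and 109 in LPS. The groups did not overlap, and both the lower control and the higher LPS library were those numbered 1. The mean went from 2.10 ± 1.11 to 135 ± 36.6 CPM (SD, n = 2 each), 61.4-fold higher, with a log2 fold change of 5.94 ± 0.44 (SE; edgeR adjusted p = 0.0016). The size of the increase rested on few control counts. It was 122-fold between the libraries numbered 1 and 37.8-fold between those numbered 2, and without control replicate 2 the log2 fold change was 6.61. Nos2 was 58th of 9548 genes when ordered by increase.

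Gch1, which makes the first intermediate of the synthase's cofactor, had 10.5 and 8.27 CPM in control and 215 and 161 CPM in LPS. Both LPS libraries were far above both control libraries, and control libraries differed little. The mean went from 9.39 ± 1.59 to 188 ± 38.1 CPM (SD, n = 2 each), 20.1-fold higher (log2 4.33 ± 0.29; edgeR adjusted p = 0.0011). The increase was 20.5-fold between the libraries numbered 1 and 19.5-fold between those numbered 2. Leaving out any 1 library gave log2 fold changes of 4.11 to 4.53. The processed pseudogene Gm18811 lies within Gch1 on the same strand, and how reads there were counted is not known.

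Slc7a2, the cationic amino acid carrier CAT2, summed over its accessions to 9 and 11 counts in the control libraries against 151 and 165 with LPS, or 2.37 and 2.12 CPM against 36.1 and 39.6 CPM. Its libraries agreed more closely within groups than those of Nos2 or Gch1. The mean went from 2.24 ± 0.177 to 37.8 ± 2.49 CPM (SD, n = 2 each), 16.8-fold higher (log2 4.07 ± 0.29; edgeR adjusted p = 0.0015). With the more abundant accession alone, NM_001044740, the log2 fold change of Slc7a2 was 3.98 (edgeR adjusted p = 0.0060).

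**Figure D2:**
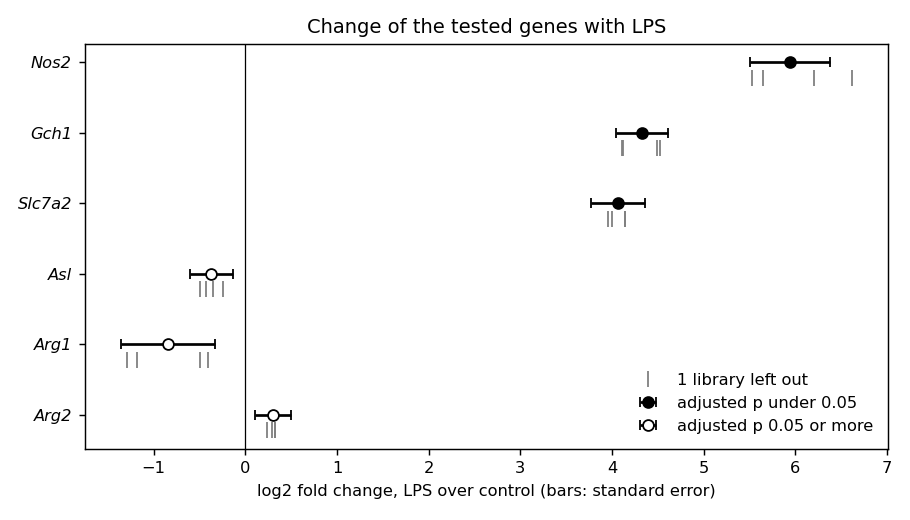
Log2 fold change of LPS over control for the 6 tested genes on the horizontal axis, with standard errors as bars and grey ticks for the values with 1 library left out. Nos2, Gch1 and Slc7a2 (filled) lie between 4 and 6, and the arginases and Asl (open) lie within 1 of 0.

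Both Slc7a2 accessions had more counts in LPS. NM_001044740, with the exon of 140 bases, went from 3 and 10 counts in control to 101 and 89 with LPS. NM_007514, with the exon of 137 bases, went from 6 and 1 counts to 50 and 76. NM_001044740 held 66.9% of the counts in LPS replicate 1 (exact Clopper-Pearson 95% interval 58.8% to 74.3%) and 53.9% in LPS replicate 2 (46.0% to 61.7%). In control the shares were 33.3% (7.49% to 70.1%) and 90.9% (58.7% to 99.8%), so the LPS shares lay between the control shares and a shift between the accessions was not detectable at this depth. Intervals cover counting error only. Because the transcripts differ in length and in the last exon as well as in exon 7, and the counting mode is not given, the shares are not a measure of exon 7 use or of the amounts of the transcripts.

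**Figure D3:**
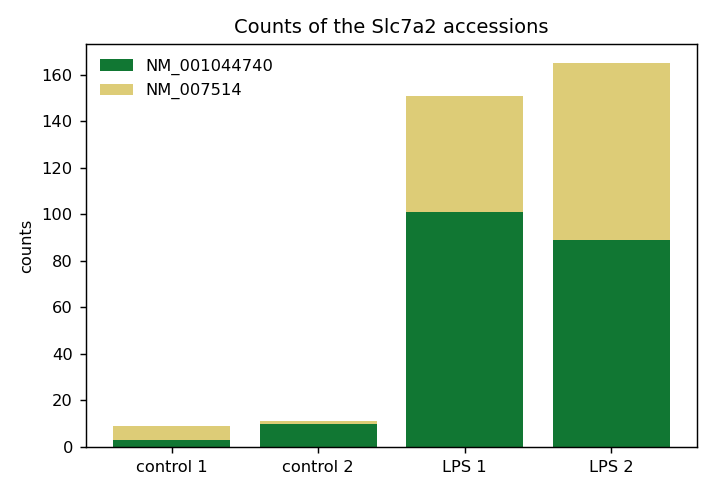
Counts of the accessions of Slc7a2 in each library, stacked, with counts on the vertical axis. The sums are 9 and 11 in control and 151 and 165 in LPS, and both accessions contribute to both LPS bars.

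Neither gene that rebuilds arginine from citrulline was called. Ass1 (accession NM_007494, chromosome 2, 31470270 to 31520670, plus strand) had 0 counts in all 4 libraries. In a library, 0 counts allow a level of up to 0.577 to 0.789 CPM when 3 counts are taken as the limit, but this covers counting error only. Itgam and the transcription factor gene Cebpb, which macrophages express, also had 0 counts throughout, so 0 in this table is not read as absence. Of genes with more than 1 accession, 30.2% had no count, and of genes with 1 accession 6.95%. Ass1 belongs to the latter, while Itgam has 2 accessions and Cebpb 3.

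Asl, which splits argininosuccinate to arginine and fumarate (chromosome 5, 130011258 to 130024381, minus strand), had 30.2 and 32.3 CPM in control and 26.3 and 22.1 CPM in LPS. Both LPS libraries were slightly below both control libraries. The log2 fold change was -0.37 ± 0.24 without a call (edgeR adjusted p = 0.46), and the fold within libraries of 1 number was 0.869 and 0.683.

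The arginases differed in abundance and neither passed the test. Arg1 (chromosome 10, 24915207 to 24927470, minus strand), often used as a marker of alternative activation, was counted 13 and 31 times in control and 14 and 8 times with LPS, or 3.42 and 5.96 against 3.34 and 1.92 CPM. Control replicate 1 and LPS replicate 1 were nearly equal, and the libraries numbered 2 lay farther apart. Its log2 fold change was -0.84 ± 0.51 (edgeR adjusted p = 0.44), with -0.03 between the libraries numbered 1 and -1.64 between those numbered 2. Arg2 (chromosome 12, 79130788 to 79156301, plus strand) had 67.0 and 72.3 CPM in control and 87.1 and 84.7 CPM in LPS, both LPS libraries being above the control libraries. Its log2 fold change was 0.30 ± 0.20 (edgeR adjusted p = 0.47) and changed sign with total-count scaling (-0.13) and after quantile normalization (-0.02). Arg1 overlaps the lncRNA gene Gm40616, and Arg2 overlaps Gm40462 and Vti1b, so their counts are uncertain where strand was not used. In simulated libraries of this depth the test recovered 10% of genes lowered and 17.5% of genes raised by a log2 of 1, and 85% at 2, so changes of the size seen for Asl, Arg1 and Arg2 would mostly not be called.

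Per length, Arg2 was the most abundant of the 6 single-accession genes in control and Gch1 had the highest mean in LPS. On a scale of CPM per kilobase of transcript, control levels were 48.8 ± 2.61 for Arg2, 12.96 ± 0.609 for Asl, 3.38 ± 0.572 for Gch1, 3.18 ± 1.22 for Arg1 and 0.501 ± 0.265 for Nos2 (SD, n = 2). Gch1 and Arg1 were not apart beyond their spread. In LPS the order was Gch1 (67.9 ± 13.7), Arg2 (60.2 ± 1.23), Nos2 (32.2 ± 8.74), Asl (10.01 ± 1.23) and Arg1 (1.78 ± 0.682). Gch1 and Arg2 overlapped there, with 77.6 and 58.2 for Gch1 and 61.0 and 59.3 for Arg2. Slc7a2 was left out since its accessions differ in length, and no test was made between genes.

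Ratios of counts within a library do not depend on how libraries are scaled. Nos2 had fewer counts than Arg1 in both control libraries, with ratios of 0.385 (exact 95% counting interval 0.107 to 1.15, which includes 1) and 0.484 (0.243 to 0.924). It had many more in LPS, with ratios of 48.1 (28.5 to 88.5) and 56.9 (28.6 to 133). Against Arg2 the ratio went from 0.0196 and 0.0399 in control to 1.85 and 1.29 in LPS. Per length, Nos2 remained below Arg2 in both LPS libraries, at 0.629 and 0.439 of its level. Gch1 exceeded Nos2 in every library. The ratios of counts were 8.0 (3.16 to 26.0) and 2.87 (1.56 to 5.56) in control and 1.34 (1.21 to 1.48) and 1.48 (1.31 to 1.67) in LPS. The intervals of control replicate 2 and LPS replicate 2 overlapped. No test between groups was made on these ratios.

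**Figure D4:**
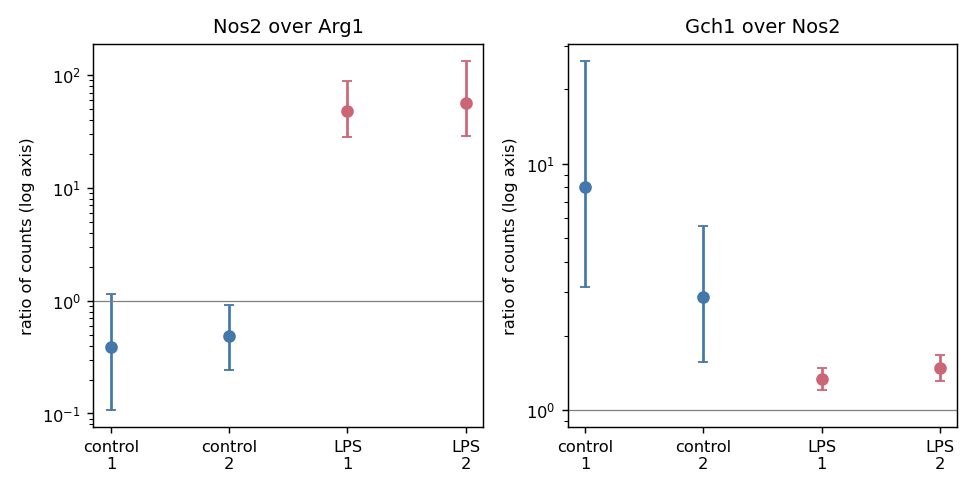
Ratio of counts of Nos2 over Arg1 (left) and of Gch1 over Nos2 (right) in each library, on log axes, with exact 95% counting intervals as bars and a grey line at 1. The first ratio is below 1 in control and has lower bounds of 28.5 and 28.6 in LPS. The second is lower in both LPS libraries than in either control library, but its intervals overlap between control replicate 2 and LPS replicate 2.

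Other genes of the pathway were taken from lists of functions. Calls in each list stand beside 6.55% called higher and 1.79% called lower over all genes tested. Of 12 genes for synthases and nitric oxide signalling, 4 were tested, and edgeR called 0 in either direction (0 at an unadjusted p under 0.05, 0 with DESeq2 or limma), with a median log2 fold change of -0.37. The neuronal synthase Nos1 had 4 and 13 counts in control and 3 in each LPS library, and the endothelial synthase Nos3 had 5, 11, 1 and 4, so both were under the minimum. Ddah1, which degrades methylated arginines that inhibit the synthases, was the most abundant tested gene of the list, with 21.8 and 51.0 CPM in control and 22.2 and 59.5 in LPS. Ddah1 was higher in the libraries numbered 2 of both groups, and the groups overlapped.

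No other gene of BH4 synthesis and recycling was called. All 5 tested genes of 7 had negative log2 fold changes, with a median of -0.56, and edgeR called 0 of them (1 lower at an unadjusted p under 0.05, 0 with DESeq2 or limma). Qdpr, which regenerates BH4, had 61.8 and 26.9 CPM in control and 49.4 and 20.9 in LPS (-0.33 ± 0.55), and its sign turned without control replicate 1 (0.37) or LPS replicate 2 (0.17). Pts and Spr, the enzymes after Gch1, were chosen after their values were seen. Their log2 fold changes were -0.19 ± 0.33 and -0.56 ± 0.42 (edgeR adjusted p = 0.82 and 0.54).

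Among amino acid carriers, 1 of 6 tested genes of 9 was called higher (6.55% of all genes). None was called lower (0 at an unadjusted p under 0.05, 0 with DESeq2), with a median log2 fold change of 0.00. The gene that rose was Slc7a11, the cystine and glutamate exchanger, which carries no arginine. It had 368 and 475 CPM in control and 3327 and 4200 in LPS, 8.93-fold higher (log2 3.16 ± 0.25; edgeR adjusted p = 0.0020), and 2.29 after quantile normalization. The constitutive arginine carrier Slc7a1, chosen after its values were seen, had 46.0 and 33.5 CPM in control and 53.5 and 44.9 in LPS, which overlap (0.31 ± 0.26, edgeR adjusted p = 0.59). Slc38a2, a carrier of neutral amino acids and the most abundant uncalled gene, had a log2 fold change of -0.67 ± 0.27 (edgeR adjusted p = 0.24). It was called lower without control replicate 2 (-1.01, edgeR adjusted p = 0.047), with total-count scaling (-1.07, 0.036) and after quantile normalization (-1.21, limma 0.040), and over all alternatives the adjusted p was 8.9e-04 to 0.65.

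Downstream of the arginases, 1 of 9 tested ornithine, polyamine and proline genes of 18 was called lower (1.79% of all genes). None was called higher (1 at an unadjusted p under 0.05, 0 with DESeq2), with a median of 0.02. Paox, which oxidises acetylated polyamines, went from 19.5 and 14.0 CPM to 3.34 and 3.598 CPM, 4.78-fold lower (log2 -2.26 ± 0.35; edgeR adjusted p = 0.018). Its call was lost without LPS replicate 1 (-2.20, 0.12) or LPS replicate 2 (-2.30, 0.097), with adjusted p of 3.5e-06 to 0.12 over the 13 alternatives in which Paox was tested. Odc1, the ornithine decarboxylase, had 127 and 250 CPM in control and 154 and 289 in LPS, higher in the libraries numbered 2 of both groups (0.23 ± 0.43). The sign of Odc1 turned with total-count scaling (-0.22), after quantile normalization (-0.27) and without control replicate 1 (-0.17) or LPS replicate 2 (-0.29).

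Of genes that provide aspartate to Ass1 or handle the fumarate that Asl releases, 1 of 8 tested of 9 was called higher (6.55% of all genes). None was called lower (1 at an unadjusted p under 0.05, 0 with DESeq2), with a median of -0.07. With limma-trend the counts were 0 higher and 1 lower. The gene called lower was Got1, the cytosolic aspartate aminotransferase, named after its values were seen, at 38.6 and 18.3 CPM in control and 12.4 and 7.20 in LPS. The groups did not overlap, and the log2 fold change of Got1 was -1.53 ± 0.48 without a call by edgeR (adjusted p = 0.14) and -1.56 with limma (adjusted p = 0.044). The limma values were not scaled for library size. Slc25a12, a mitochondrial aspartate and glutamate carrier, had 19.5 and 18.8 CPM in control and 44.6 and 40.3 in LPS, 2.22-fold higher (log2 1.15 ± 0.23; edgeR adjusted p = 0.038). The call of Slc25a12 was lost without any 1 of the 4 libraries (1.16 and 1.09 without control replicates 1 and 2, 1.08 and 1.23 without LPS replicates 1 and 2, edgeR adjusted p = 0.098 to 0.27). It was also lost with total-count scaling (0.72, 0.15), upper-quartile scaling (0.92, 0.070), limma-trend (1.05, 0.14) and quantile normalization (1.00, 0.057), with adjusted p of 2.8e-05 to 0.27 over the alternatives. The most abundant uncalled gene was Mdh1, the cytosolic malate dehydrogenase (-0.29 ± 0.23).

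**Figure D5:**
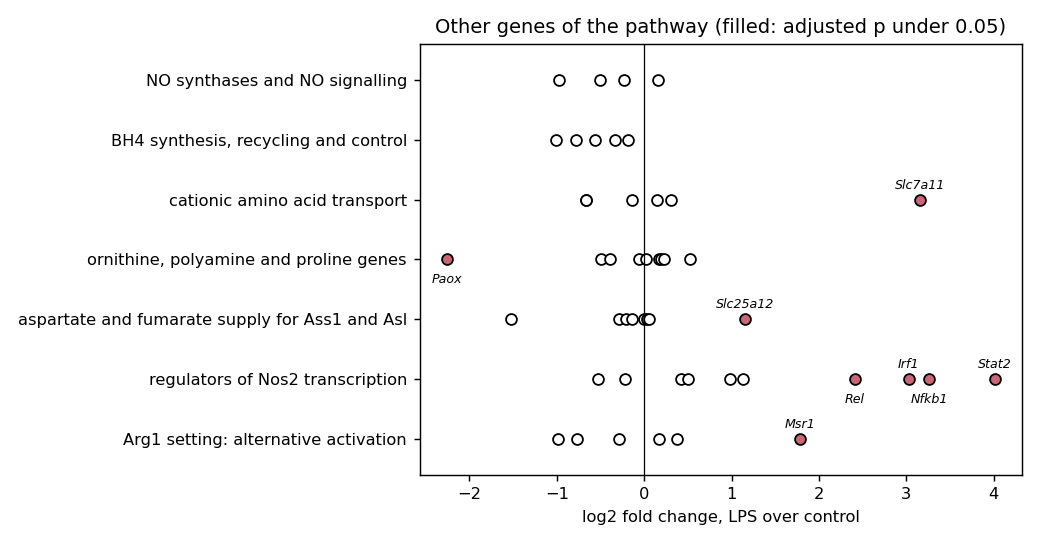
Log2 fold change of LPS over control for each tested gene of 7 lists, 1 list a row, with filled points for an adjusted p under 0.05. The BH4 row holds only negative values, and the row of Nos2 regulators holds 4 filled points, all to the right of 0.

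Transcription factors known to act at the Nos2 gene were called higher in 4 of 10 tested cases of 13 (6.55% of all genes). None was called lower (0 at an unadjusted p under 0.05, 0 with DESeq2), with a median of 1.05. Stat2, a subunit of the interferon-activated factor ISGF3, went from 17.1 and 26.2 CPM to 387 and 315 CPM, 16.2-fold higher (log2 4.01 ± 0.30; edgeR adjusted p = 0.0016). Nfkb1, the NF-kB subunit p50, rose by 3.26 ± 0.52 (adjusted p = 0.019; 3.94 without control replicate 1), and the NF-kB subunit Rel rose by 2.41 ± 0.31 (0.010) but was not called once LPS replicate 1 was left out (2.28, 0.0505). Irf1, which binds the Nos2 promoter, rose on small counts, from 3 and 2 to 21 and 19 (3.03 ± 0.55, edgeR adjusted p = 0.028), and has 3 accessions. Without control replicate 2 the call of Irf1 was lost (edgeR adjusted p = 0.11), the count ratio on the log2 scale being 2.60 with a 95% interval of 0.95 to 4.94, and without control replicate 1 this ratio was 3.64 (1.69 to 6.73). After quantile normalization the log2 fold change was 2.52 (limma adjusted p = 0.052), and the adjusted p was 2.7e-04 to 0.11 over 10 alternatives, since in the other 4 (without either LPS replicate, a mean count of 50, and the highest accession) Irf1 fell under the minimum. Irf9, with 3 accessions, was under the minimum, with 1 count in each control library against 23 and 11 after LPS. Nfe2l2, the antioxidant factor NRF2, was the most abundant uncalled gene (0.98 ± 0.22, edgeR adjusted p = 0.061). It was called without control replicate 1 (1.07, 0.048), with DESeq2 (0.99, 0.023) and without a filter (1.08, 0.0095), with adjusted p of 2.1e-06 to 0.36 over the alternatives.

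Genes of alternative activation, with which Arg1 is usually grouped, held 1 gene called higher among 6 tested of 12 (6.55% of all genes). None was called lower (1 at an unadjusted p under 0.05, 0 with DESeq2), with a median of -0.06. The called gene was Msr1, a scavenger receptor, at 30.8 and 51.2 CPM in control and 111 and 172 in LPS (log2 1.78 ± 0.35; edgeR adjusted p = 0.039), with 2 accessions. The call of Msr1 was lost without LPS replicate 1 (2.08, 0.0505) or LPS replicate 2 (1.44, 0.16), with total-count scaling (1.34, 0.099), with upper-quartile scaling (1.55, 0.070) and after quantile normalization (1.47, 0.093), with adjusted p of 1.4e-09 to 0.16 over the alternatives. Stat6, the mediator of interleukin-4 signals, had 173 and 141 CPM in control and 91.0 and 93.8 in LPS (-0.77 ± 0.21, edgeR adjusted p = 0.096). It was called lower with total-count scaling (-1.18, 0.022), upper-quartile scaling (-0.99, 0.039), quantile normalization (-1.17, 0.018) and a minimum mean count of 50 (-0.86, 0.046), with adjusted p of 1.2e-04 to 0.44 over the alternatives. Chil3 and Retnla, other markers of that state, had at most 5 and 4 counts in any library.

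For each rising gene the 5 tested genes nearest in profile were listed. Any gene has nearest genes in such a ranking, so having them is not a result. Likeness was the Euclidean distance between log2 CPM values centred on their mean over the 4 libraries, and it is a description over few samples. Gbp10, an interferon-inducible GTPase, was nearest to Nos2 at a distance of 0.18, rising from 6 and 15 counts to 735 and 538, and next came Ifi204, Samd9l, Ch25h and Zbp1 (0.44 to 0.53). Without control replicate 2 all 5 neighbours of Nos2 had larger log2 fold changes, by the most for Samd9l (6.69 against 5.93), as Nos2 itself had. Cd274, the checkpoint ligand PD-L1, was nearest to Gch1 at 0.07, rising from 450 and 480 counts to 10072 and 7595, ahead of Nlrc5, Dtx3l, Malt1 and Nfkbie (0.21 to 0.31). Slfn2, Irak3, Rab11fip1, Sp140 and Car13 were nearest to Slc7a2 (0.27 to 0.34). Quantile normalization gave smaller values for Cd274 (3.54 against 4.33), Dtx3l (3.51 against 4.11) and Slfn2 (2.92 against 3.66).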

How the data were processed

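The table deposited by the authors gives counts for 32915 RefSeq accessions in 4 libraries. Its name calls it normalized, but its values are whole and its totals differ, so they were treated as counts. Build mm10, HTSeq 0.6.1, TopHat2 2.0.10, Cufflinks 2.2.1, Trimmomatic 0.33 and CASAVA 1.8.2 were used, per the submitters' processing notes. Counting mode, strand setting and annotation: not given in the sources used here. Per the labels' protocols, ribosomal RNA was removed and directional paired-end libraries were sequenced.

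Accessions were matched to symbols with a RefSeq gene table of GRCm38.p6 (32487) or GENCODE M21 metadata (187); 241 kept their own name. Counts were summed per gene, and the 9548 genes averaging 10 counts or more were tested with edgeR 4.0.16 in R 4.3.3 (quasi-likelihood, TMM, no covariate, all 4 libraries, two-sided). TMM factors were 1.05 and 1.27 in control and 0.822 and 0.908 in LPS. The standard error is the log2 fold change divided by the square root of F. Alternatives used DESeq2 1.42.0 and limma 3.58.1. Limma-trend took log2 counts, with 1 added, that were not scaled for library size unless quantile normalization is named. The code was tested on simulated data. Transcript lengths and exons came from GENCODE M21.

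The 7 genes, the lists and the named-gene rule (called list genes, at most 5 a list, each list's most abundant uncalled gene, and the 5 nearest profiles) were chosen with earlier results of these data known. A few genes of the lists are not reported here.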

Additional observations from a re-analysis of the deposited data

How the results depend on the processing

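Over 14 alternatives, the calls of Nos2 (log2 5.48 to 6.61), Gch1 (3.90 to 4.53) and Slc7a2 (3.64 to 4.17) kept their side of the threshold and their direction, as did the missing calls of Asl and, in the 13 where it was tested, Arg1, which lies under a minimum mean of 50. In each alternative 3 of the 7 genes were called higher and 0 lower. Arg2, not called in any, had -0.13 with total-count scaling and -0.017 after quantile normalization.

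Of all genes tested, 625 were called higher and 171 lower (78.5% higher). The lower calls were 483 with total-count scaling (49.4% higher), 320 with upper-quartile scaling (62.7%) and 322 after quantile normalization (61.9%). Over all genes the median log2 fold change went from -0.05 to -0.48 with total-count scaling, -0.28 with upper-quartile scaling and -0.18 without a filter. With 1 library left out, when the lone library of a group is assumed to vary like the others, 339 to 660 genes were called higher and 33 to 241 lower; without LPS replicate 1 they were 339 and 33 and without LPS replicate 2 they were 425 and 33.

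Same-numbered libraries deviated together (correlation 0.66 across genes), but with 2 numbers this is a hint from the data. A block on the replicate number gave 1677 genes higher and 1258 lower (57.1% higher), still 3 and 0 of the 7 genes, and Slc38a2 (-0.63), Stat6 (-0.76) and Nfe2l2 (0.96) were called.

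Ddah1, not called (0.16), was -0.29 with total-count scaling, -0.069 with upper-quartile scaling, -0.067 after quantile normalization, -0.32 without control replicate 1 and -0.71 without LPS replicate 2 (-0.71 to 0.88 with 1 library left out). Odc1 was -0.22, -0.27, -0.17 and -0.29 in the settings given above (-0.29 to 0.78 with 1 library left out), and Qdpr 0.37 and 0.17 (-1.07 to 0.37). The cause of these differences was not tested. Depth limits Nos2 and Slc7a2 in control (5 to 15 counts) and Arg1 throughout (8 to 31).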
